A study of Mus musculus with 20 samples.

Results

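Kpna2, Phb, Mrpl27 and Smarce1, 4 protein-coding parent genes of mouse chromosome 11, were examined together with 5 near-identical retrocopies on other chromosomes. Gm10184 and Gm10259 are copies of Kpna2, Gm7666 is a copy of Phb, Gm6304 is a copy of Mrpl27 and Gm4811 is a copy of Smarce1. The 9 genes, of 35580 in the files, form 4 parent-copy groups with 27 transcripts, and were chosen by the measured differences of parents and copies between genotypes in these same samples. Differences of these 9 genes between genotypes are therefore given as a description, without a p-value, and their calls only as counts beside the share of all genes called. Their differences between the tissues, which the choice did not use, were tested.

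The study sequenced RNA of hippocampus and of neocortex (cerebral cortex in the labels) from male mice aged 13.5 months, with 5 samples in each of 4 groups and 20 in all. The WT groups were wild-type controls and the miR-324-null groups, called null below, were Mir324-null, and all 4 groups carried the strain label C57BL/6J. The null allele is a CRISPR/Cas9 deletion at the Mir324 locus. Part of the founders' genome came from CBA/Ca, and both lines descend from matings between heterozygotes after backcrossing to C57BL/6J. The labels do not state which samples came from the same mouse or that replicates were separate animals. The SDs and standard errors given here therefore measure the spread between these samples. The estimated counts of a sample, the reads that kallisto assigned to annotated transcripts, summed to between 12752439 and 19617765.

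A retrocopy is made when a spliced messenger RNA is reverse transcribed and inserted elsewhere in the genome, so it usually has no introns and often lacks its parent's promoter. Most are annotated as processed pseudogenes. In RNA-seq, a read from a stretch that parent and copy share matches both, and a counting program must divide such reads by the few positions at which the sequences differ.

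On GRCm38, Mir324 lies on chromosome 11 from 70012043 to 70012131. All 4 parents lie further along the same chromosome. Mrpl27 (chr11:94653767-94660089, plus strand, 4 exons in its main transcript) is 24.6 Mb away and Phb (chr11:95666957-95680773, plus strand, 7 exons) is 25.7 Mb away. Smarce1 (chr11:99209047-99231017, minus strand, 11 exons) is 29.2 Mb away and Kpna2 (chr11:106988629-106999541, minus strand, 11 exons) is 37.0 Mb away.

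Every copy consisted of 1 exon. Gm10184 (chr17:89908462-89910449, minus strand) is annotated as protein coding. Gm10259 (chr3:25211016-25212605, minus strand), Gm6304 (chr18:15011246-15011692, plus strand) and Gm4811 (chr13:64927942-64929161, minus strand) are processed pseudogenes. Gm7666 (chr15:6653923-6654741, plus strand) is a transcribed processed pseudogene. It lies within the bounds of Fyb on the same strand and overlaps an exon of 1 Fyb transcript, so reads from the overlap cannot be told apart. Gm6304 lies within an intron of Kctd1, on the opposite strand.

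The copies were aligned to the main transcript of their parent, and within the aligned bases only the differing positions tell one from the other. Parent sequence outside the alignment, such as the rest of the Phb transcript of 1799 bases, also sets the parent apart. Gm10184 matched Kpna2 over 1968 bases with 2 mismatches (99.9% identity), and Gm10259 over 1590 bases with 3 mismatches (99.8%). Gm7666 matched Phb over 819 bases with 1 mismatch (99.9%). Gm6304 matched Mrpl27 over 447 bases with 5 mismatches (98.9%). Gm4811 was the least alike, with 25 mismatches and 7 gap bases against Smarce1 (97.4%). Each mismatch lay in the coding sequence of the parent.

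With positions counted from base 1 of the parent transcript, the parent's base first, both Kpna2 copies carried A902G and C947T, and Gm10259 also carried C296T. Gm7666 carried A344G alone. As a result the Kpna2 copies differed from each other, within the aligned bases, at C296T. Of the 31-base words of each copy, the length kallisto uses by default, 95.8% of Gm10184, 94.0% of Gm10259 and 96.1% of Gm7666 were also in the parent, against 67.6% of Gm6304 and 53.5% of Gm4811. Words found in no other annotated gene numbered 20 for Gm10184, 31 for Gm10259, 31 for Gm7666, 124 for Gm6304 and 417 for Gm4811. The Gm10184 sequence compared here has 1988 bases, against 1939 in the version the authors used. Within the aligned bases Gm10184 has no mismatch that Gm10259 lacks, so its 20 words reach beyond them. They may be absent from the authors' version.

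The windows below, of 29 bases each on GRCm38 and printed 5′ to 3′ on the gene's own strand, show how little separates each pair. Capitals mark the bases that differ. The first pair shows A902G, which is in both Kpna2 copies, the second shows C296T, which is in Gm10259, the third shows A344G, and the last shows the 4 differences of Smarce1 and Gm4811 at C1201T, C1204T, T1205G and G1208A. The Smarce1 window crosses an exon junction, so its genomic span is longer.
Kpna2 (chr11:106991289-106991317, minus strand): aatcttacctggacActttcaaacctttg
Gm10184 (chr17:89909607-89909635, minus strand): aatcttacctggacGctttcaaacctttg
Kpna2 (chr11:106996618-106996646, minus strand): gaaatgcgtcgccgCcgaatagaagttaa
Gm10259 (chr3:25212502-25212530, minus strand): gaaatgcgtcgccgTcgaatagaagttaa
Phb (chr11:95671515-95671543, plus strand): ccacggaacgtaccAgtcatcactggtag
Gm7666 (chr15:6654139-6654167, plus strand): ccacggaacgtaccGgtcatcactggtag
Smarce1 (chr11:99215274-99219235, minus strand): gctgaggatccagaCgaCTatGatgatgg
Gm4811 (chr13:64928616-64928644, minus strand): gctgaggatccagaTgaTGatAatgatgg

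Values are given as CPM, the estimated counts of a gene scaled by the TMM-normalised size of the sample, unless TPM, which is also scaled to transcript length, is named. A logFC is the log2 fold change of edgeR's fit over all genes, null minus WT, with its standard error (SE). In these bulk samples, fewer cells of a type and less RNA per cell cannot be told apart. Across the groups, the pattern was of low or absent copies in WT and of copies present in null samples, while Kpna2, Phb and Mrpl27 were lower in null samples and Smarce1 differed little in CPM. Summed over parent and copies, the Kpna2 and Smarce1 groups differed by no more than 0.18 in logFC in either tissue. The Phb group was lower by 0.13 and 0.23, and the Mrpl27 group kept most of its parent's difference. Except for Mrpl27, this picture depended on the unit. In TPM the neocortical means of WT and null samples were 18.8 and 24.8 for the Kpna2 total and 72.9 and 60.2 for the Smarce1 total. Those of the Phb total were 87.1 and 85.4 TPM.

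**Figure D1:**
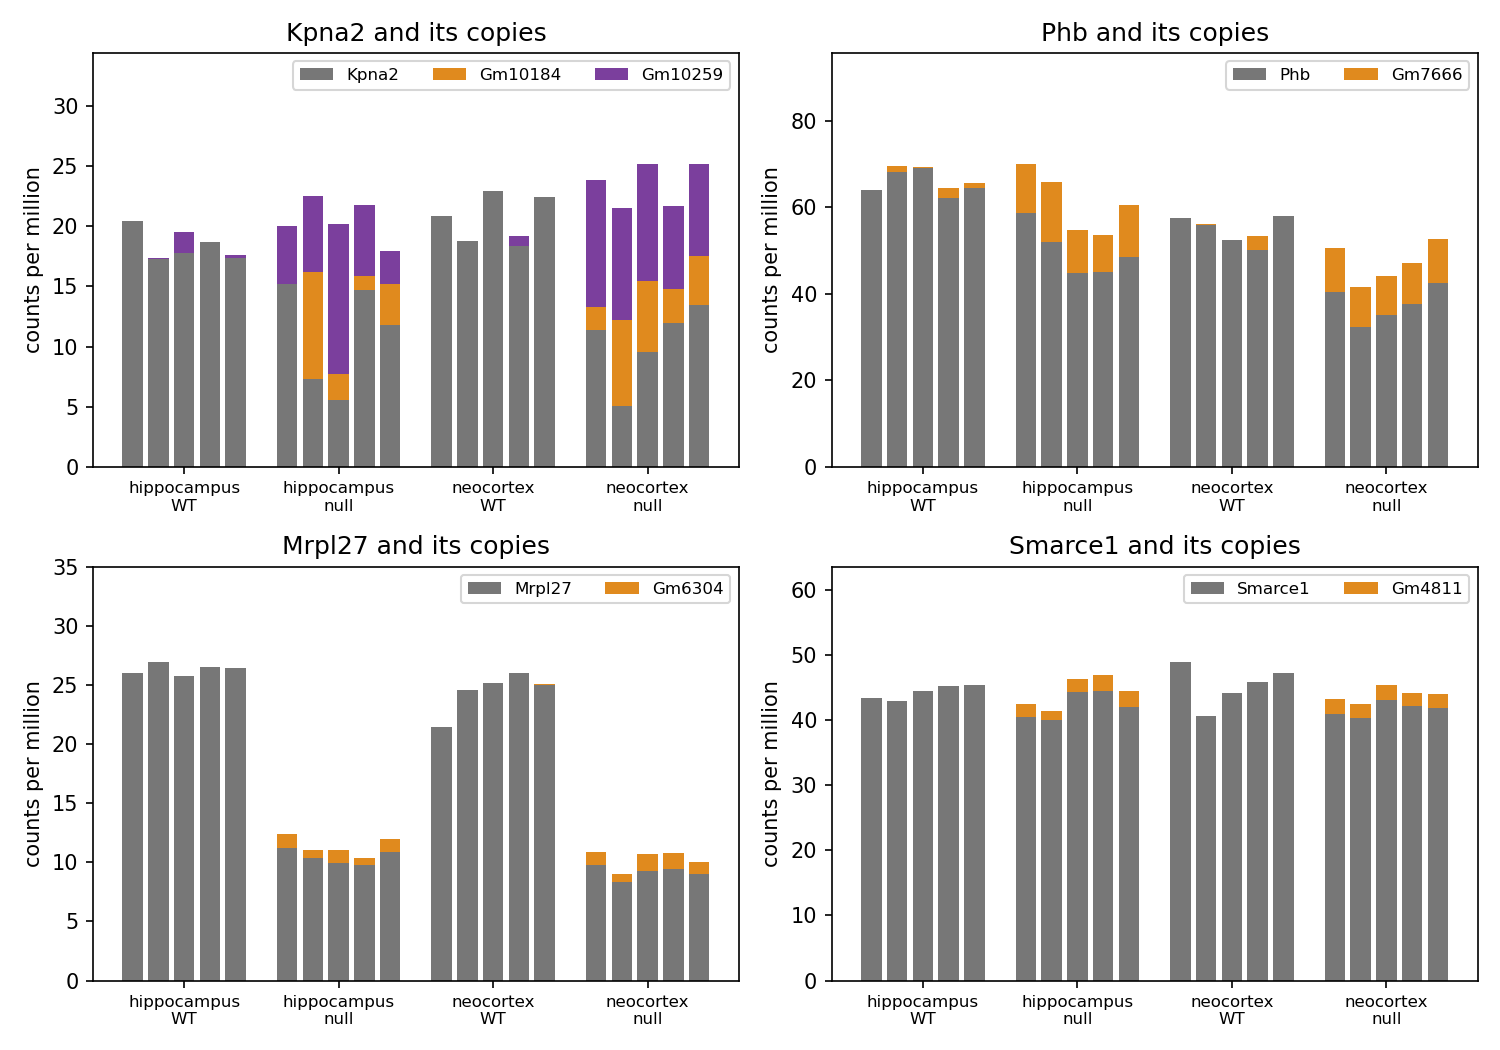
CPM of each parent (grey) and its copies (orange and purple), stacked, with 1 bar per sample in the order of replicates 1 to 5 within each group. In null samples the copies make up part of each bar in all 4 panels. Only for Mrpl27 do the whole bars of null samples lie below those of WT without overlap. For Phb the mean height in the neocortex is 55.5 CPM in WT and 47.2 CPM in null samples.

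Kpna2 encodes importin alpha-1, an adaptor that binds the nuclear localisation signal of a cargo protein and hands it to importin beta for transport into the nucleus. In WT hippocampus Kpna2 stood at 20.4, 17.3, 17.8, 18.7 and 17.4 CPM in replicates 1 to 5, and in null hippocampus at 15.2, 7.26, 5.53, 14.7 and 11.8 CPM. In WT neocortex it stood at 20.9, 18.8, 22.9, 18.3 and 22.4 CPM, and in null neocortex at 11.4, 5.07, 9.55, 11.98 and 13.4 CPM. Every null sample was below every WT sample of its tissue, and the null samples were spread far more widely. The logFC of Kpna2 was -0.75 (SE 0.23) in the hippocampus and -1.01 (SE 0.19) in the neocortex.

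Gm10184 was at 0 in all 10 WT samples. In null hippocampus it stood at 0, 8.95, 2.18, 1.18 and 3.40 CPM, and in null neocortex at 1.86, 7.11, 5.95, 2.78 and 4.15 CPM. In null hippocampal replicate 1 no counts were thus assigned to Gm10184, while Gm10259 stood at 4.87 CPM there. Since so little separates the Kpna2 copies, whether that sample lacked Gm10184 cannot be told. A floor of 3 counts per WT library was chosen for copies at 0, although some WT estimates of other copies lay below it. Against this floor, the mean of Gm10184 in null samples was at least 15.0-fold higher in the hippocampus and at least 21.1-fold higher in the neocortex. The hippocampal bound rests on replicate 2, without which it was at least 8.07-fold.

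Gm10259 stood at 4.87, 6.34, 12.5, 5.85 and 2.74 CPM in null hippocampus and at 10.6, 9.33, 9.72, 6.91 and 7.64 CPM in null neocortex. In WT hippocampus it ranged from 0 to 1.76 CPM and in WT neocortex from 0 to 0.821 CPM. All null samples were above all WT samples of their tissue, 16.0-fold in the hippocampus (95% counting interval 11.1 to 24.0) and 52.8-fold in the neocortex (30.02 to 103) from the summed counts. A counting interval, here and below, is a binomial interval on the counts summed over samples. It does not cover the spread between samples and is too narrow where samples differ. These ratios rest on 1 WT sample in each tissue: without WT replicate 3 the fitted logFC in the hippocampus went from 3.95 to 6.71, and without WT replicate 4 that in the neocortex went from 5.68 to 10.2. The division between the copies also varied, since Gm10184 held from 0% to 58.5% of their joint counts in null hippocampus and from 14.9% to 43.2% in null neocortex.

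Summed, the Kpna2 group stood at 20.4, 17.3, 19.5, 18.7 and 17.6 CPM in WT hippocampus and at 20.05, 22.6, 20.2, 21.8 and 17.9 CPM in null hippocampus. Neocortical values were 20.9, 18.8, 22.9, 19.2 and 22.4 CPM in WT and at 23.9, 21.5, 25.2, 21.7 and 25.2 CPM in null samples. The genotypes overlapped in both tissues. In the hippocampus the parent was lower by 7.42 CPM (SE 2.03) in null samples and the copies were higher by 9.20 CPM (SE 2.25), which left a difference of 1.78 CPM (SE 0.98) in the total. In the neocortex the corresponding differences were -10.4 (SE 1.72), 13.0 (SE 1.26) and 2.66 CPM (SE 1.17).

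The spread between null samples was smaller for the total than for Kpna2. The coefficient of variation of Kpna2 alone was 40.0% in null hippocampus and 31.4% in null neocortex, and that of the total was 8.71% and 7.78%, which was near the 6.87% and 8.94% of the WT totals. The null hippocampal replicates with the least Kpna2, 2 and 3, had the most copy counts, at 15.3 and 14.7 CPM. The logFC of the total was 0.13 (SE 0.08) in the hippocampus and 0.18 (SE 0.08) in the neocortex. It depended on the unit: with an offset for average transcript length it was 0.26 and 0.35. In TPM, the neocortical totals did not overlap, at 16.4 to 22.1 in WT and 22.6 to 27.3 in null samples.

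**Figure D2:**
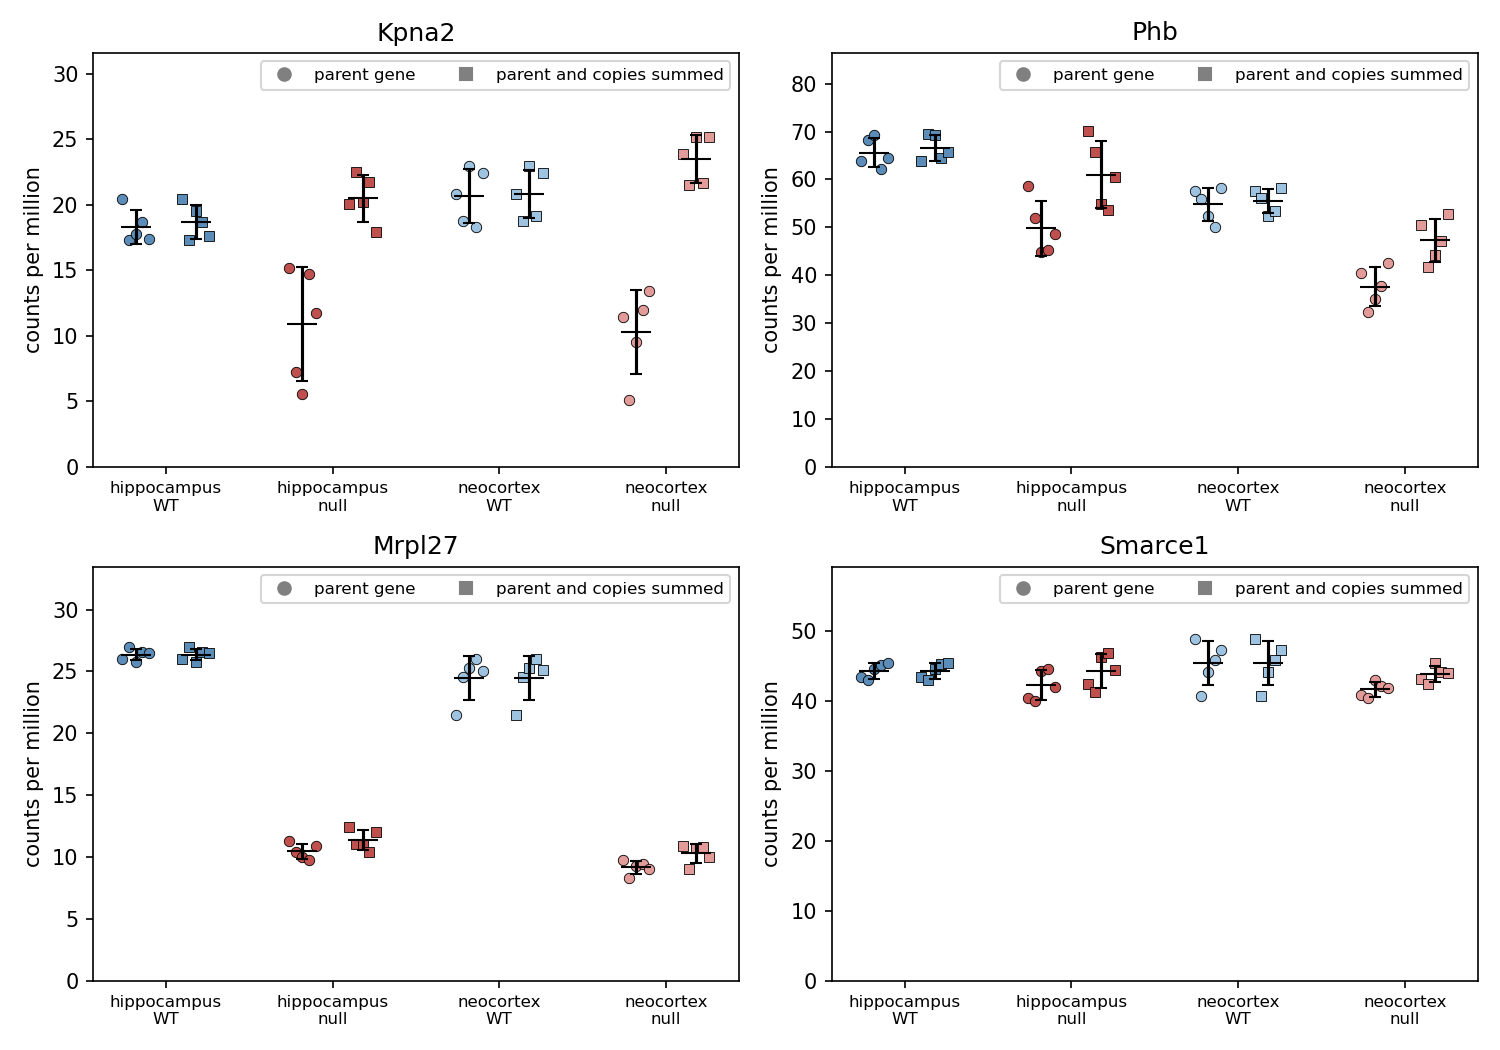
CPM of each parent (circles) and of parent and copies summed (squares) in the 4 groups, 1 point per sample, with mean and SD (n = 5). The circles of Kpna2 in null samples lie between 5.07 and 15.2 and the squares between 17.9 and 25.2, whereas for Mrpl27 circles and squares lie close together.

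Phb encodes prohibitin, which assembles with prohibitin-2 into ring complexes of the mitochondrial inner membrane. In WT hippocampus Phb stood at 63.9, 68.2, 69.2, 62.3 and 64.4 CPM, and in null hippocampus at 58.7, 51.9, 44.8, 45.2 and 48.6 CPM. Neocortical values were 57.6, 56.0, 52.4, 50.1 and 58.1 CPM in WT and at 40.5, 32.2, 35.1, 37.6 and 42.6 CPM in null samples. The genotypes did not overlap in either tissue, and the logFC was -0.40 (SE 0.07) in the hippocampus and -0.54 (SE 0.07) in the neocortex.

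Gm7666 was the most abundant copy. It stood at 11.4, 13.8, 10.1, 8.51 and 12.03 CPM in null hippocampus and at 10.1, 9.40, 9.10, 9.46 and 10.2 CPM in null neocortex. In WT hippocampus it ranged from 0 to 2.19 CPM and in WT neocortex from 0 to 3.17 CPM. It was 12.2-fold higher in null hippocampus (95% counting interval 9.45 to 15.9) and 14.5-fold higher in null neocortex (10.9 to 19.9). Neocortical WT replicate 4 held nearly all the WT counts of its tissue, and without it the fitted logFC went from 3.84 to 7.35.

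The Phb total stood at 63.9, 69.6, 69.2, 64.5 and 65.6 CPM in WT hippocampus and at 70.1, 65.7, 54.8, 53.7 and 60.6 CPM in null hippocampus. Neocortical values were 57.6, 56.2, 52.4, 53.3 and 58.1 CPM in WT and at 50.5, 41.6, 44.2, 47.1 and 52.8 CPM in null samples. Both tissues overlapped between genotypes, in the neocortex by a single pair of samples. In the hippocampus the parent differed by -15.8 CPM (SE 2.89), the copy by 10.2 CPM (SE 0.99) and the total by -5.56 CPM (SE 3.36). In the neocortex these differences were -17.2 (SE 2.41), 8.97 (SE 0.66) and -8.27 CPM (SE 2.32). The logFC of the total was -0.13 (SE 0.07) and -0.23 (SE 0.06). In TPM the neocortical total was 87.1 ± 5.10 in WT and 85.4 ± 5.50 in null samples (SD, n = 5), a difference of -0.03 on the log2 scale, and with the length offset the logFC was -0.08.

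Mrpl27 encodes a protein of the large subunit of the mitochondrial ribosome, which translates the few proteins encoded by mitochondrial DNA. It stood at 26.0, 26.96, 25.8, 26.5 and 26.5 CPM in WT hippocampus and at 11.3, 10.4, 9.98, 9.77 and 10.9 CPM in null hippocampus. Neocortical values were 21.5, 24.6, 25.2, 26.0 and 25.0 CPM in WT and at 9.75, 8.31, 9.24, 9.42 and 8.98 CPM in null samples. The distance between the genotypes was many times the spread within them, with a logFC of -1.34 (SE 0.06) in the hippocampus and -1.42 (SE 0.07) in the neocortex.

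Gm6304 made up little of this difference. It was at 0 in every WT sample but neocortical replicate 5, which held 0.0769 CPM. In null hippocampus it stood at 1.12, 0.627, 1.07, 0.621 and 1.12 CPM, and in null neocortex at 1.11, 0.729, 1.48, 1.41 and 1.04 CPM. Its mean was at least 4.36-fold higher in null hippocampus, and the ratio in the neocortex, which rests on 1 count in WT, was 82.6 (95% counting interval 14.5 to 3294).

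The Mrpl27 total was 26.3 ± 0.46 CPM in WT and 11.4 ± 0.80 CPM in null hippocampus, and 24.5 ± 1.76 and 10.3 ± 0.78 CPM in the neocortex (SD, n = 5). In the hippocampus the parent differed by -15.9 CPM (SE 0.34) and the copy by 0.91 CPM (SE 0.12), and in the neocortex by -15.3 (SE 0.82) and 1.14 CPM (SE 0.14). The total therefore did not overlap between genotypes in either tissue, with a logFC of -1.21 (SE 0.06) and -1.25 (SE 0.08). With each transcript that shares at least 95% identity over at least 100 bases added to the group, namely those of Pqlc1 and Ocrl, which share only short stretches with Mrpl27, the logFC was -1.03 and -1.01.

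Smarce1 encodes a high-mobility-group protein of the BAF complex, which moves nucleosomes on DNA. It stood at 43.5, 43.0, 44.6, 45.2 and 45.4 CPM in WT hippocampus and at 40.5, 40.0, 44.4, 44.6 and 42.1 CPM in null hippocampus. Neocortical values were 48.9, 40.7, 44.2, 45.9 and 47.3 CPM in WT and at 40.9, 40.4, 43.1, 42.1 and 41.9 CPM in null samples. The genotypes overlapped in both tissues, and the logFC was -0.07 (SE 0.05) in the hippocampus and -0.12 (SE 0.05) in the neocortex. In TPM the difference of Smarce1 was larger, at -16.5 (SE 6.11) in the hippocampus and -16.3 (SE 4.95) in the neocortex. The samples of the genotypes overlapped there too.

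Gm4811 separated the genotypes fully while its parent did not. It was at 0 in every WT sample but hippocampal replicate 4, which held 0.104 CPM. In null hippocampus it stood at 2.08, 1.40, 1.96, 2.38 and 2.42 CPM, and in null neocortex at 2.29, 2.05, 2.43, 2.01 and 2.15 CPM. The ratio in the hippocampus was 148 (95% counting interval 26.1 to 5871), again on 1 count in WT, and the mean in null neocortex was at least 10.6-fold higher.

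The Smarce1 total was 44.4 ± 1.10 CPM in WT and 44.3 ± 2.39 CPM in null hippocampus (SD, n = 5). The parent differed by -2.03 CPM (SE 1.07) and the copy by 2.03 CPM (SE 0.18). In the neocortex the total was 45.4 ± 3.16 CPM in WT and 43.9 ± 1.14 CPM in null samples, a logFC of -0.04 (SE 0.05). On a scale weighted by transcript length the total was lower in null samples: in TPM it was 67.0 ± 9.29 in WT and 53.7 ± 10.6 in null hippocampus, and 72.9 ± 9.60 and 60.2 ± 5.53 in the neocortex. With the length offset the logFC was -0.33 and -0.32. The genotypes overlapped in TPM as well.

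In edgeR's fit over all genes, with calls made at an adjusted p up to 0.05, 1 of the 4 parents (Mrpl27) was called lower in null hippocampus, where 0.0473% of all genes tested were called lower. Of the 5 copies, 3 passed the filter on low counts there, and 2 of those (Gm7666 and Gm4811) were called higher, where 0.0676% of all genes were. In the neocortex 3 of 4 parents were called lower (0.154% of all genes) and 5 of 5 copies higher (0.161% of all genes). Without overlap between genotypes stood 3 parents in each tissue, below WT, where 1.19% and 1.29% of all genes did so in the hippocampus and the neocortex. Above WT without overlap stood all 3 tested copies of the hippocampus and all 5 of the neocortex, where 1.37% and 1.02% of all genes did. Gm6304, which did not pass the filter in the hippocampus, did not overlap there either, so that 4 of the 5 copies were above WT. Since these contrasts chose the genes, and since a copy passes the filter only through its null samples, nothing is read from the counts.

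The copies' share of the estimated counts of a group sets the pairs side by side. In null hippocampus it was 46.3% ± 22.3 for the Kpna2 group, 18.3% ± 2.23 for Phb, 7.95% ± 1.95 for Mrpl27 and 4.60% ± 0.81 for Smarce1 (SD, n = 5). In null neocortex it was 56.4% ± 13.0, 20.5% ± 1.26, 11.1% ± 2.33 and 4.98% ± 0.33 in the same order. WT means were at most 2.09%. The order of the groups was alike in both tissues, and the samples of groups next to each other in this order did not overlap in estimated counts. In the hippocampus the Kpna2 group ranged from 24.3% to 72.7%, Phb from 15.9% to 20.99%, Mrpl27 from 5.68% to 9.66% and Smarce1 from 3.38% to 5.43%. The copies are shorter than their parents' main transcripts, and in TPM, which is scaled to length, their share was higher. It was 50.4% ± 21.4, 29.9% ± 4.44, 14.1% ± 3.40 and 5.97% ± 0.76 in null hippocampus and 59.7% ± 11.2, 30.5% ± 1.32, 19.2% ± 3.75 and 5.98% ± 0.68 in null neocortex (SD, n = 5). The order was the same in TPM, but the hippocampal samples of the Kpna2 group (29.96% to 77.5%) and of Phb (23.4% to 35.96%) then overlapped.

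**Figure D3:**
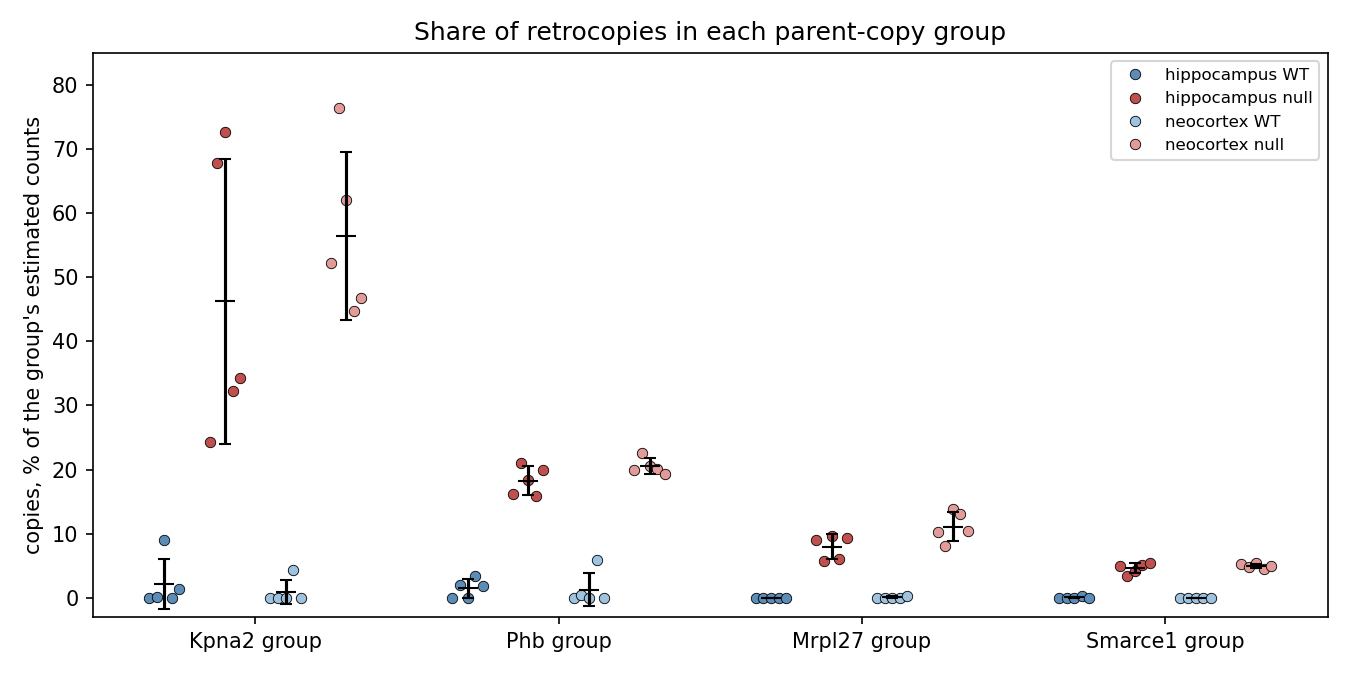
Share of each parent-copy group's estimated counts that was assigned to the copies, in percent, 1 point per sample, with mean and SD (n = 5) for the 4 groups of samples. In null samples the share runs from 24.3% to 76.4% in the Kpna2 group and from 3.38% to 5.43% in the Smarce1 group, and in WT samples it is at most 9.01%.

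Whether the share differed between tissues within null samples was tested with a two-sided exact permutation test over 5 against 5 samples, which can reach p = 0.00794 at the least. None of the 4 comparisons passed, at p = 0.405 for Kpna2, 0.111 for Phb, 0.0794 for Mrpl27 and 0.389 for Smarce1 (exact test; Benjamini-Hochberg adjusted over the 4: 0.405, 0.222, 0.222 and 0.405). The mean share was lower in the hippocampus in each group, by between 0.39 and 10.2 percentage points.

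The transcripts of Mrpl27 and Smarce1 did not differ in step between genotypes. Of Mrpl27, the protein-coding ENSMUST00000025278.7 was at 20.9 ± 1.05 CPM in WT and 4.05 ± 0.94 CPM in null hippocampus, and at 18.4 ± 2.78 and 3.07 ± 0.94 CPM in the neocortex (SD, n = 5). Over the same groups, ENSMUST00000132813.7, a transcript without an annotated coding sequence, was at 3.15 ± 1.42 and 5.99 ± 1.02 CPM in the hippocampus and at 2.47 ± 2.43 and 5.84 ± 1.28 CPM in the neocortex. The coding transcript thus held 79.4% of the gene's CPM in WT and 38.7% in null hippocampus, and 74.8% and 33.6% in the neocortex. The share of their 31-base words that is also in Gm6304 was alike, at 38.8% and 41.0%.

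For Smarce1, the coding transcript ENSMUST00000103133.3 of 2919 bases was at 33.3 ± 1.17 CPM in WT and 35.5 ± 1.20 CPM in null hippocampus, and at 33.6 ± 2.17 and 33.8 ± 1.60 CPM in the neocortex (SD, n = 5). The shorter, non-coding ENSMUST00000156160.1, of 610 bases, was at 7.27 ± 1.06 and 4.46 ± 1.12 CPM in the hippocampus and at 7.63 ± 1.57 and 4.83 ± 0.60 CPM in the neocortex, with no overlap of genotypes in either tissue. A count on a short transcript adds more to the TPM of the gene than a count on a long one. Of Phb, the coding transcript of 1799 bases was at 49.98 ± 4.63 CPM in WT and 41.4 ± 9.16 CPM in null hippocampus. The coding transcript of 724 bases, of whose 31-base words 80.7% are in Gm7666 against 42.8% for the longer one, was at 15.05 ± 2.46 and 7.73 ± 4.12 CPM. In the neocortex both differed nearly in step, at 40.4 ± 1.35 and 28.2 ± 4.21 CPM for the longer and 13.5 ± 2.15 and 8.58 ± 1.34 CPM for the shorter. Kpna2 was carried mainly by the coding ENSMUST00000018506.12, with 91.8% of the gene's counts in WT and 99.3% in null hippocampus, and 90.8% and 88.3% in the neocortex. Outside null hippocampus, most of the rest lay on ENSMUST00000145331.7, annotated as a target of nonsense-mediated decay. It held 7.80% in WT hippocampus, 8.66% in WT neocortex and 9.75% in null neocortex. In null hippocampus it held 0.0021%, and ENSMUST00000106768.1 held 0.58%. The level of ENSMUST00000145331.7 varied widely between samples, from 0 to 3.73 CPM in WT hippocampus and from 0 to 3.50 CPM in null neocortex.

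**Figure D4:**
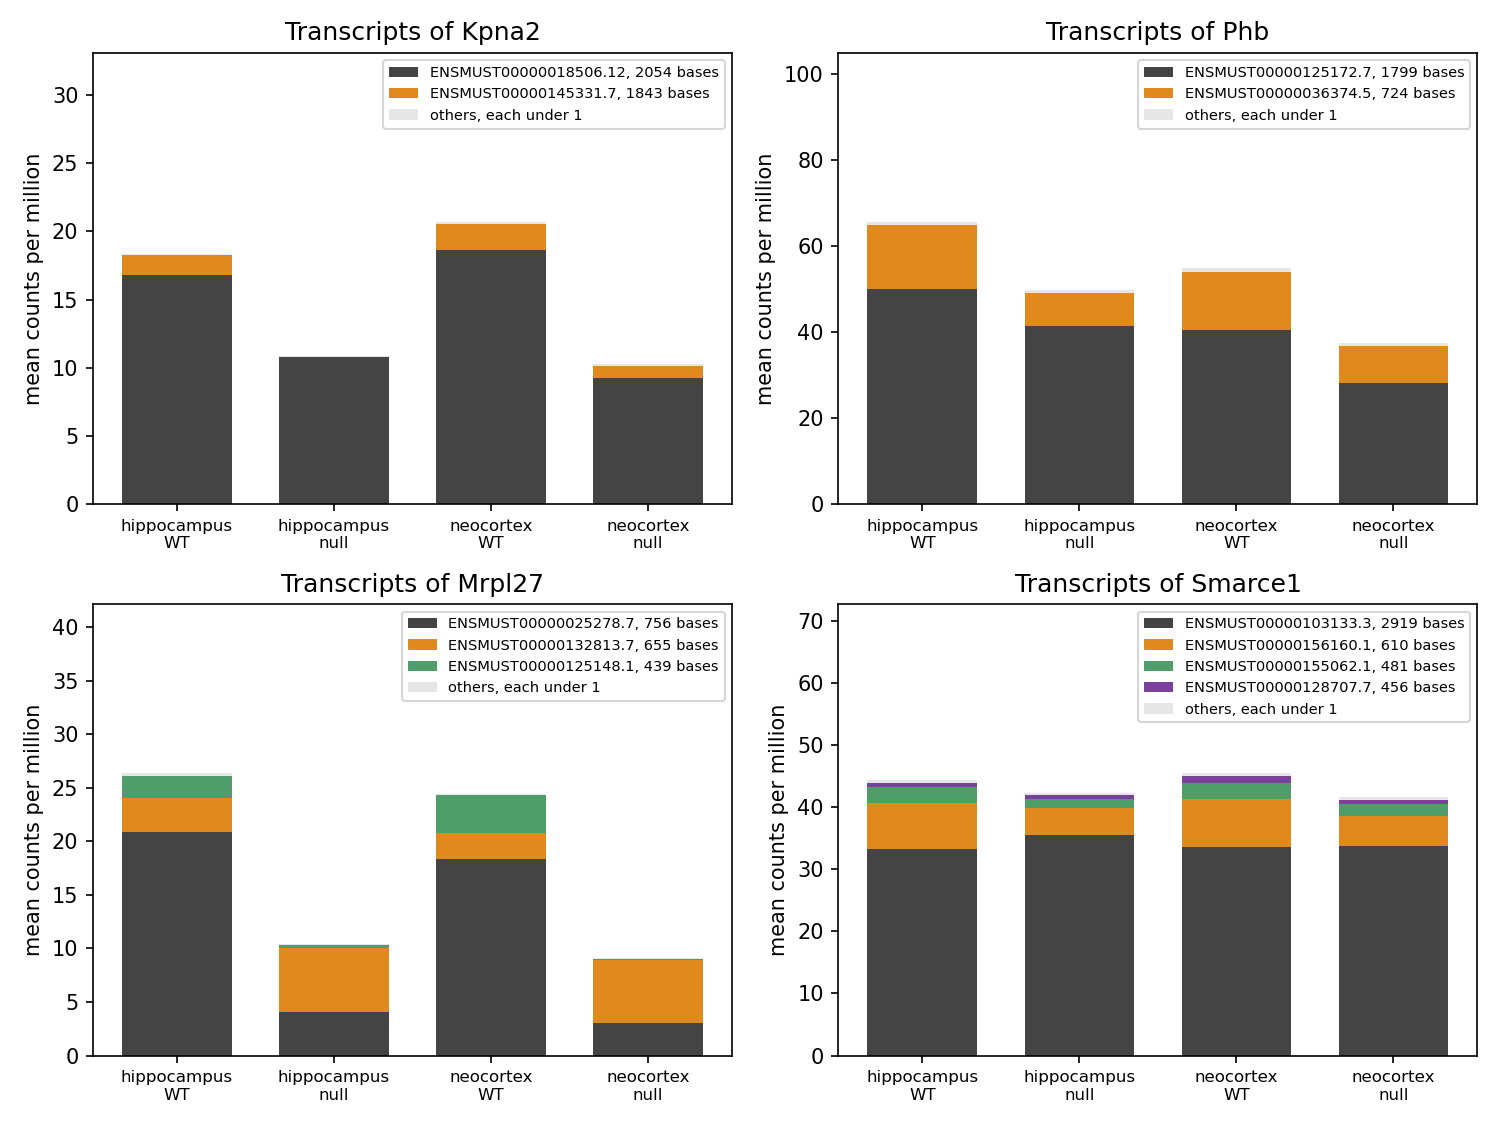
Mean CPM of the annotated transcripts of each parent, stacked, in the 4 groups (n = 5 samples each), with transcripts whose mean stayed under 1 CPM joined as others. The coding Mrpl27 transcript of 756 bases takes 20.9 CPM in WT and 4.05 CPM in null hippocampus, the transcript of 655 bases takes 3.15 and 5.99 CPM, and the Smarce1 transcript of 2919 bases differs little.

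Other near-identical genes were searched to see whether a copy outside the groups behaved alike. Among annotated transcripts, those of 15 other genes shared at least 95% identity over at least 100 bases with a parent, and 4 of them had a mean of at least 10 estimated counts in any group. Kpna2-ps had means of 4.34 in WT and 4.75 in null hippocampus and of 6.68 and 12.2 estimated counts in the neocortex. A Med20 transcript that shares 296 bases in antisense had means of 119 to 160 estimated counts. Pqlc1 had 32.2 to 68.7 and Ocrl 5.88 to 13.6. Smarce1 has 2 copies that are more alike to it than Gm4811, Gm8494 at 98.9% and Smarce1-ps1 at 98.3% identity. Both had means of at most 1.52 estimated counts in every group. Gm7781, a processed pseudogene with 95.5% identity to Phb over 621 bases, had means of 0 in WT and 3.32 in null hippocampus and of 0.21 and 3.81 estimated counts in the neocortex, and thus, at very low counts, was also higher in null samples. Likeness to the parent did not order the copies by their counts in null samples.

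Between tissues, Phb was the only parent called. Its total was higher in the hippocampus than in the neocortex in WT, with a logFC (hippocampus minus neocortex) of 0.26 (SE 0.05) and an adjusted p of 0.0006 in the quasi-likelihood test of edgeR (Benjamini-Hochberg), and in null samples, with a logFC of 0.38 (SE 0.09) and an adjusted p of 0.0067. All 5 hippocampal samples exceeded all 5 neocortical ones within each genotype, which held for 13.1% of all genes in WT and 10.1% in null samples. Of the 4 parents, 1 was called in WT, where 36.1% of all genes were, and 1 in null samples, where 27.4% were, and it was Phb in both, at 0.26 (SE 0.05, adjusted p = 0.0016) and 0.41 (SE 0.09, adjusted p = 0.0052). Mrpl27 was not called in null samples (0.20, SE 0.08, adjusted p = 0.083 in edgeR's test), but there all its hippocampal samples exceeded all its neocortical ones. In TPM the difference in the Phb total was smaller, at 0.20 and 0.17 on the log2 scale.

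The other totals did not pass in either genotype. In WT the logFC between tissues was -0.16 (SE 0.07, adjusted p = 0.126) for Kpna2, 0.11 (SE 0.06, adjusted p = 0.178) for Mrpl27 and -0.03 (SE 0.05, adjusted p = 0.663) for Smarce1, from the same edgeR test. In null samples it was -0.19 (SE 0.08, adjusted p = 0.103), 0.15 (SE 0.09, adjusted p = 0.207) and 0.03 (SE 0.05, adjusted p = 0.765). With all near-identical transcripts added, the Kpna2 group of WT passed at an adjusted p of 0.0471 (logFC -0.18).

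No copy could be tested between tissues in WT, since none passed the filter on low counts. In null samples all 5 were tested and edgeR called none, with 0 at an unadjusted p under 0.05 and 0 called by DESeq2. The logFC was -0.48 (SE 0.66) for Gm10184, -0.43 (SE 0.30) for Gm10259, 0.22 (SE 0.12) for Gm7666, -0.33 (SE 0.28) for Gm6304 and -0.08 (SE 0.18) for Gm4811, with adjusted p from 0.187 to 0.766 in edgeR's test. A pair of these rested on 1 sample. Without hippocampal replicate 3, which had the most Gm10259, the logFC of that copy was -0.83 (adjusted p = 0.0145), and without hippocampal replicate 4, which had the least Gm7666, the logFC of that copy was 0.30 (adjusted p = 0.0481).

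Levels can be compared between the parents only per length. In TPM and WT hippocampus the order was Phb at 97.5 ± 7.39, Mrpl27 at 85.8 ± 3.58, Smarce1 at 67.0 ± 9.24 and Kpna2 at 16.1 ± 0.95 (SD, n = 5). The samples of Phb and Mrpl27 overlapped, and those of Kpna2 were below all others. In null hippocampus the order was Phb at 67.2 ± 6.69, Smarce1 at 50.5 ± 10.1, Mrpl27 at 35.2 ± 1.60 and Kpna2 at 9.60 ± 3.80 TPM. The samples of Smarce1 overlapped there with those of Phb and with those of Mrpl27. Gm7666 stood at 28.5 TPM in null hippocampus and both Kpna2 copies together at 10.3 TPM. In WT neocortex Mrpl27 (86.3 TPM) was above Phb (85.3 TPM), so the order did not hold in each tissue.

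Partners of the parents were examined in the same fits. Of 17 tested genes of nuclear import other than Kpna2, 8 prohibitin partners and inner-membrane proteases, 48 other genes of the large mitochondrial ribosomal subunit and 25 BAF genes, none was called between genotypes by edgeR in either tissue, where 0.115% of all genes were called in hippocampus and 0.315% in neocortex, so a count of 0 is near this background. Of these 98 genes, 8 had an unadjusted p under 0.05 in hippocampus and 10 in neocortex, and DESeq2 called Ipo5 and Mrpl10 in the hippocampus and Mrpl10 in the neocortex. The median logFC of the mitochondrial ribosomal genes was 0.07 in hippocampus and 0.01 in neocortex, beside 0.001 and 0.005 over all genes. Between tissues 36.1% of all genes were called in WT, and the lists' shares lay near or below it. In WT, 7 of the 17 import genes were called, 5 of them lower in the hippocampus, among them Rangap1, the activator of the Ran GTPase (logFC -0.33, SE 0.05), while Kpna4 was higher (0.27, SE 0.04). Of the BAF genes, 5 were higher and 5 lower in WT hippocampus, with Dpf3 at 1.58 (SE 0.13) and Smarca2, an ATPase of the complex, at -0.42 (SE 0.04). Of the mitochondrial ribosomal genes, 9 were higher, such as Mrpl10 at 0.24 (SE 0.04), and 2 lower. In null samples, where 27.4% of all genes were called, 3 of 17 import genes, 11 of 25 BAF genes and 7 of 48 mitochondrial ribosomal genes were. Of the 8 prohibitin partners and inner-membrane proteases, 2 were called in WT, Yme1l1 (0.16, SE 0.05) and Opa1 (-0.14, SE 0.05). In null samples 2 were called as well, Phb2 (0.18, SE 0.06) and Parl (0.31, SE 0.09), both higher in the hippocampus.

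The genes next to the parents and copies were followed as well. Among 8 neighbours of the parents, 1 was called between genotypes, in the neocortex, where 0.315% of all genes were called (0.115% in the hippocampus). Igfbp4, which binds insulin-like growth factors, was lower in null neocortex (logFC -0.54, SE 0.08, adjusted p = 0.0094 in edgeR's test). In the hippocampus Igfbp4 had the opposite sign, at 0.18, and was not called. Xylt2, 3762 bases from Mrpl27, was at -0.09 and -0.12, and Krt222, 1744 bases from Smarce1, was at 0.02 and -0.14, none of them called. Of the 10 neighbours of the copies, Fyb and Kctd1 included, edgeR called none between genotypes in either tissue. An unadjusted p under 0.05 was seen for 3 of them in hippocampus and 2 in neocortex, and DESeq2 called 1, Cntnap3 next to Gm4811, in the neocortex.

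Among 15382 other genes and over all 20 samples, which share tissue and genotype differences, those whose log2 CPM followed a group total most closely were Atp6ap2, Bend5 and Smad2 for Kpna2 (Pearson's r = 0.83, 0.80 and 0.77), R3hdm4, Psd and Maz for Phb (0.92, 0.91 and 0.90), Gm3555, Osbpl7 and Mlxip for Mrpl27 (0.95, 0.89 and 0.89) and Kcng3, Fam135b and Zfp605 for Smarce1 (0.78, 0.71 and 0.70). These are descriptions without a test. Osbpl7 is the only one of the 12 on chromosome 11.

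The tissue labels were checked against markers. Of the 6 hippocampal markers, 6 were higher in the hippocampus in each genotype, and 5 of 6 neocortical markers were lower. The summed level of 5 striatal markers was 45.0 to 170 CPM in WT and 92.9 to 282 CPM in null neocortex, and that of 6 hippocampal markers was 80.2 to 86.7 and 73.9 to 160 CPM there. Choroid plexus markers ranged from 40.1 to 4516 CPM in WT and from 51.1 to 3881 CPM in null hippocampus, and from 15.5 to 53.1 CPM in WT and from 22.2 to 801 CPM in null neocortex. The 6 neocortical markers summed to 469 to 574 CPM in WT and 384 to 483 CPM in null neocortex. No marker was called between genotypes by edgeR, with an unadjusted p under 0.05 for 4 of 36 in the hippocampus, and for 18 of 35 in the neocortex, where DESeq2 called 4 (Prox1, Fibcd1, Cux2 and Clic6). The part of tissue composition in the values of the parents and copies was not tested. Mir324 was not analysed here, which leaves no reading of the deleted gene from these data as a check on the samples. The paper reports qRT-PCR in both tissues of male mice of this age, with no Mir324 expression in null mice.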

How the data were processed

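The authors sequenced stranded mRNA libraries and pseudo-aligned the reads with kallisto to the mouse GRCm38 transcriptome. They deposited, per sample and transcript, an estimated count and a TPM value, which kallisto computed from the estimated counts and effective transcript lengths. The study itself went on with Tximport and DESeq2. kallisto divides reads that fit several transcripts between them, so counts of near-identical genes depend on the few positions that differ. SDs, floors and counting intervals do not cover that division, and counting intervals do not cover the spread between samples either.

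Of 115270 transcripts, 113580 were matched by identifier to GENCODE M21, and the 1690 others, with at most 0.556% of a sample's counts, were excluded. Gene counts are the rounded sums of the estimated counts of a gene's transcripts. In a second table each parent and its copies formed 1 row. Both were fitted with edgeR 4.0.16 in R 4.3.3 (TMM, default filter on low counts, quasi-likelihood test, Benjamini-Hochberg adjustment, calls at 0.05) within each tissue or genotype. No block was used, since the labels do not say which samples came from the same mouse. If the tissues shared mice, the tests between tissues leave that pairing out. The filter left 14894 genes (WT) and 15033 (null) for the comparison of tissues, and 14796 (hippocampus) and 14930 (neocortex) for that of genotypes. Steps were tested on simulated data. Copies were aligned to their parents with the local pairwise aligner of Biopython 1.88, and other near-identical transcripts were searched with BLAST 2.17.0. Figures and permutation tests used Python 3.11.15 with scipy 1.17.1. Fold bounds take 3 counts per library as a chosen floor, which is not a limit of detection.

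The genes, lists and tests were chosen with earlier results of these data known. Named genes are the 9 genes and their transcripts, the 3 genes most correlated with each total, called genes of 4 pathway lists, neighbouring genes, and near-identical transcripts with a mean of at least 10 counts. Gm8494, Smarce1-ps1, Gm7781, Fyb, Xylt2, Krt222 and the genes called by DESeq2 were named after their values were seen. Alternatives were DESeq2 1.42.0 and its size factors, other filters, a length offset, TPM, all 20 samples in 1 fit, the replicate number as a block, other near-identical transcripts added to the groups, and each sample left out in turn. Adding only near-identical retrocopies, and pairing the copy shares by number, were chosen after seeing the data.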

Additional observations from a re-analysis of the deposited data

Results flagged for a closer look

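In 48 sets of 5 samples, the values of the 9 genes and the summed values were checked for a sample that lies far from the other 4 by Dixon's rule, which chance alone meets in about 1 of 20 sets. In 5 sets a sample did, and each was a copy in WT samples, where the other samples were at or near 0.

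Gm10259 stood at 1.76 CPM in WT hippocampus replicate 3, where the others held between 0 and 0.226 CPM. In WT neocortex replicate 4 it stood at 0.821 CPM, and the other 4 samples had none. The same sample held 3.17 CPM of Gm7666, beside 0 to 0.192 CPM in the others. Gm6304 stood at 0.0769 CPM in WT neocortex replicate 5 and Gm4811 at 0.104 CPM in WT hippocampus replicate 4, both of which are about 1 estimated count, and both copies were at 0 in the other samples of the group. All 5 values are below the lowest null sample of the same copy and tissue.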

How the results depend on the processing

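Of 368 values of the totals and copy shares under the alternatives, 342 kept their direction, their side of the threshold and their size within 1 SD. Of 483 values of the single genes, 463 did. Most of the others came with a scale that weighs counts by transcript length. In the hippocampus the logFC between genotypes was 0.26 with the length offset and 0.26 in TPM for the Kpna2 total, -1.07 and -1.06 for Mrpl27, and -0.33 and -0.32 for Smarce1. In the neocortex it was 0.35 and 0.39 for Kpna2, -0.077 and -0.029 for Phb, and -0.32 and -0.28 for Smarce1, and -1.11 in TPM for Mrpl27. With all near-identical transcripts added, the Mrpl27 total was at -1.03 and -1.01, and the Kpna2 total between tissues in WT passed at -0.18 (edgeR adjusted p = 0.0471). In TPM, the tissue difference in WT was 0.20 for Phb, -0.12 for Smarce1 and, turned in sign, -0.010 for Mrpl27. In null samples it was -0.32 for Kpna2, 0.038 for Mrpl27, 0.17 for Phb and, turned in sign, -0.16 for Smarce1, whose total was also at -0.087 with the length offset, beside -0.088 for Smarce1 alone. The causes were not tested.

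With 1 sample left out, the genotype logFC of the totals ranged from 0.09 to 0.18 and from 0.14 to 0.22 for Kpna2 in the hippocampus and the neocortex, from -0.18 to -0.09 and from -0.27 to -0.18 for Phb, from -1.24 to -1.18 and from -1.29 to -1.20 for Mrpl27, and from -0.02 to 0.02 and from -0.08 to -0.02 for Smarce1. The tissue difference of the Smarce1 total, which passed no threshold, ranged from -0.071 to 0.0013 in WT (Smarce1 alone: -0.071 to 0.00073), turning without neocortical replicate 1, and from -0.0017 to 0.050 in null samples, turning without hippocampal replicate 4. That of Kpna2 in null samples turned from 0.09 to -0.056, -0.051 and -0.090 without hippocampal replicate 1, hippocampal replicate 4 and neocortical replicate 2, and that of Gm4811 from -0.08 to 0.026 without hippocampal replicate 2 (lowest: -0.15). Mrpl27 passed between tissues in null samples with all 20 samples in 1 fit (0.19, adjusted p = 0.0272).

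Replicate numbers are shared between groups, but same-numbered samples correlated at only -0.17 to 0.18 over genes. In null samples 4 of 5 correlated best with their own number in the other tissue, in WT 3 of 5, and between genotypes 1 of 5 in each tissue. With the number as a replicate block, the genotype logFC of the Kpna2 total was 0.13 and 0.18, and edgeR called 4 hippocampal and 30 neocortical genes in place of 17 and 47. DESeq2 called 139 and 240, the fit of all 20 samples 83 and 56, a minimum of 10 counts in every sample 9 and 26, and fits with 1 sample left out 10 to 31 and 27 to 566, the highest without null neocortex replicate 5. With the null samples paired by number, the copy share was lower in the hippocampus in 5 of 5 pairs for Mrpl27, 4 for Kpna2, 4 for Phb and 3 for Smarce1 (exact paired permutation test, p = 0.0625, 0.1875, 0.125 and 0.4375, adjusted 0.25 to 0.4375), where 0.0625 is the smallest p that 5 pairs allow. Depth limits the copies in WT: a library that holds 3 counts would show 0.209 CPM in the hippocampus and 0.207 CPM in the neocortex.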
